A study of Mus musculus with 12 samples.

Results

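The genes described here are 10 transcription factors that direct blood stem and progenitor cells towards one lineage or another: Gfi1, Gfi1b, Irf8, Spi1 (encoding PU.1), Cebpa, Cebpb, Gata1, Gata2, Runx1 and Klf1. They were chosen by symbol, through their Ensembl identifiers, with earlier results of these data known. They are 10 of the 46078 genes counted in the series. All 10 passed the filter on low counts in every comparison. Blood stem and progenitor cells carry low or intermediate amounts of factors that belong to competing lineages, and these factors bind and repress or activate each other's genes. PU.1, the C/EBP factors and IRF8 favour granulocytes, monocytes and dendritic cells, while GATA1, KLF1 and GFI1B favour red cells and platelets, and GATA2 and RUNX1 maintain the stem and progenitor state. GFI1 and GFI1B are related zinc-finger repressors that recruit histone demethylase and deacetylase complexes, the former acting mainly in granulocytic and lymphoid cells and in stem cells, the latter mainly in the erythroid and megakaryocytic lines.

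RNA-seq was performed on 12 libraries from C57BL/6 mouse bone marrow LSK cells (lineage-negative, Sca-1+, c-Kit+, enriched for stem and progenitor cells; called KSL in the in vivo labels) infected with a lentivirus that carries GFP and a short hairpin RNA (shRNA). The hairpin was directed against luciferase (shLuci, the control) or against Rad21 (shRad21), a subunit of the cohesin ring that holds chromatin loops and sister chromatids. The culture groups, shLuci and shRad21 with 3 libraries each, held GFP+CD48-Sca-1+ cells that were sorted after 3 days of culture. The in vivo groups, again 3 libraries each, held GFP+ KSL cells taken back from transplanted recipients, 3 months after transplantation according to the labels. A longer time is given in the study's methods, and the conflict could not be settled. The age of the mice and the hairpin used were not given in the labels, nor whether libraries of a group came from separate mice or cultures, so p-values measure the spread between these libraries, which may be technical. The setting differed also in sort gate, library kit (TruSeq RNA v2 in culture, SMART-Seq v4 with Nextera XT in vivo) and sequencing lane, and setting, kit, gate and lane cannot be told apart in any comparison of culture with in vivo cells.

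Library totals ran from 15235129 to 29846689 counts. Levels are given as CPM, the counts of a gene as a share of its library scaled to a fixed total, after TMM scaling over the 12 libraries. Rad21, the target, stood at 384, 419 and 405 CPM in shLuci against 154, 137 and 128 CPM in shRad21 cells in culture. In vivo it stood at 118, 124 and 125 CPM in shLuci against 43.4, 47.7 and 43.6 CPM in shRad21 cells. The groups did not overlap in either setting and the decrease was 2.87-fold and 2.69-fold. The stem and progenitor markers Kit and Ly6a (Sca-1) were present in all groups, at 266 to 976 CPM and 85.8 to 272 CPM, and Cd48 was lower in the CD48-sorted culture cells (29.4 to 50.2 CPM) than in vivo (137 to 302 CPM). The neutrophil marker Ly6g and the T cell marker Cd8a had no count in any culture library, where 3 counts correspond to 0.101 to 0.197 CPM. In bulk RNA, fewer cells of a type and less RNA per cell cannot be told apart, which holds for every result below.

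Promoter sequences are shown for Gfi1 and for Gfi1b, Cebpb and Klf1, the 3 genes whose response to the knockdown differed between culture and in vivo cells by the test given below, so that the binding motifs of the other factors can be read beside the values. These 4 were chosen after their values were seen. Each window holds 250 bases before and 50 after a RefSeq transcript start on GRCm38.p6, is written 5′ to 3′ on the strand of the gene, and shows matches to the motifs below in capitals. Gfi1 has 2 annotated starts on the minus strand, in windows chr5:107725756-107726055 and chr5:107724294-107724593. Gfi1b lies on the minus strand (chr2:28621933-28622232), and Cebpb (chr2:167688665-167688964) and Klf1 (chr8:84901732-84902031) lie on the plus strand.
Gfi1, first window: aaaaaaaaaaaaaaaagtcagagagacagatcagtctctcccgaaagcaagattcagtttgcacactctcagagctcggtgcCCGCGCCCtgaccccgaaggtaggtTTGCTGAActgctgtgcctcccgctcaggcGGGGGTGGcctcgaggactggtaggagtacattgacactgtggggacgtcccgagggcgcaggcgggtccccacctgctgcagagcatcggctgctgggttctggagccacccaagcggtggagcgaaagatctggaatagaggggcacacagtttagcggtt
Gfi1, second window: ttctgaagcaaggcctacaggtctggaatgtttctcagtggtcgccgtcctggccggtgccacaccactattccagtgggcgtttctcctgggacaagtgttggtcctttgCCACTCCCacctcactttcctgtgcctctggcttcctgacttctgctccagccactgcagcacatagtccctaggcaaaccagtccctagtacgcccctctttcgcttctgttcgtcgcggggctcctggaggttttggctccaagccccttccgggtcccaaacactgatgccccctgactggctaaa
Gfi1b: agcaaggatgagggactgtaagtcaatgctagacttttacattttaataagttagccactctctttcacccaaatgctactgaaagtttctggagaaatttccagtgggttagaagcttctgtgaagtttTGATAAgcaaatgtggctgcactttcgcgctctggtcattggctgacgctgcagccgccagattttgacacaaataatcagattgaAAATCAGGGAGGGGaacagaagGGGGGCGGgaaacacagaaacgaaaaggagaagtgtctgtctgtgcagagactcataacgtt
Cebpb: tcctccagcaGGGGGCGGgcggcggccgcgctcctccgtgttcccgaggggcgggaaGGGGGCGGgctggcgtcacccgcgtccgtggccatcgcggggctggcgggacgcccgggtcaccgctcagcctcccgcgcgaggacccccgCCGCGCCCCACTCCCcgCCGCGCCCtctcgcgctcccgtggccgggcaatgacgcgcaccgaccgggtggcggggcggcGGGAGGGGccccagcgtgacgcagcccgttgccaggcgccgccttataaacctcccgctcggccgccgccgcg
Klf1: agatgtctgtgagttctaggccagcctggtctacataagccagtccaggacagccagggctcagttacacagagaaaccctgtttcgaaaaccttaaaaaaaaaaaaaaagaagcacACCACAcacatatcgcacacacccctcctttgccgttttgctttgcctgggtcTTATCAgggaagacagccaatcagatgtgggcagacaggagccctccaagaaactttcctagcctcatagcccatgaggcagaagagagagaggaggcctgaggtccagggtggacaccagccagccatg

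Both strands were searched for motifs of GATA factors (AGATAA or TGATAA or AGATAG), KLF (CCACACCC and the looser CCNCNCCC that contains it), RUNX (TGTGGT), ETS as bound by PU.1 (GAGGAA), C/EBP (TTGCGCAA and the looser TTGCNNAA that contains it), GFI1 (AAATCA or AATCNC) and IRF (GAAANNGAA) factors. The Gfi1b window held a TGATAA at position -120 from the annotated start and the GFI1 motif AAATCA at -34, which adjoins a KLF match. The Klf1 window held a TGATAA on the minus strand at -80 and a RUNX motif at -133. The first Gfi1 window held a TTGCNNAA match at -143, and the Cebpb window held 6 matches to CCNCNCCC and no other motif. Such matches are common among the 32851 promoter windows of the RefSeq table: 25.1% held a GATA motif, 49.5% a KLF motif, 16.8% the RUNX motif, 28.3% the ETS motif, 10.8% the looser C/EBP motif, 40.2% a GFI1 motif and 8.56% the IRF motif. Windows were found for 9 of the 10 genes, 13 in all, and a match describes letters only.

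Gfi1 was included because it moved in opposite directions in the 2 settings, so its knockdown values are a description without a test. In culture, Gfi1 stood at 37.6, 28.5 and 36.3 CPM in shLuci and at 64.5, 57.2 and 79.4 CPM in shRad21 cells. In vivo it stood at 69.6, 66.9 and 75.9 CPM in shLuci and at 33.1, 34.9 and 39.5 CPM in shRad21 cells. All shRad21 libraries thus lay above the controls in culture and below them in vivo, and the range of each shRad21 group overlapped that of the shLuci group of the other setting. The fold change was 1.98-fold higher in culture (log2 0.98, SE 0.137) and 1.95-fold lower in vivo (log2 -0.97, SE 0.0874), and the difference between the 2 responses was 1.96 on the log2 scale (SE 0.18). The control cells of the 2 settings, whose libraries also enter both knockdown comparisons, differed 2.08-fold, with less Gfi1 in culture than in vivo (log2 -1.05, SE 0.128), which is given as a description too. The adjusted p-values that follow were obtained with the quasi-likelihood test of edgeR and adjusted by Benjamini and Hochberg's method over all genes tested. Libraries were left unpaired in these tests, except where the replicate block, which pairs them by number, is named.

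**Figure D1:**
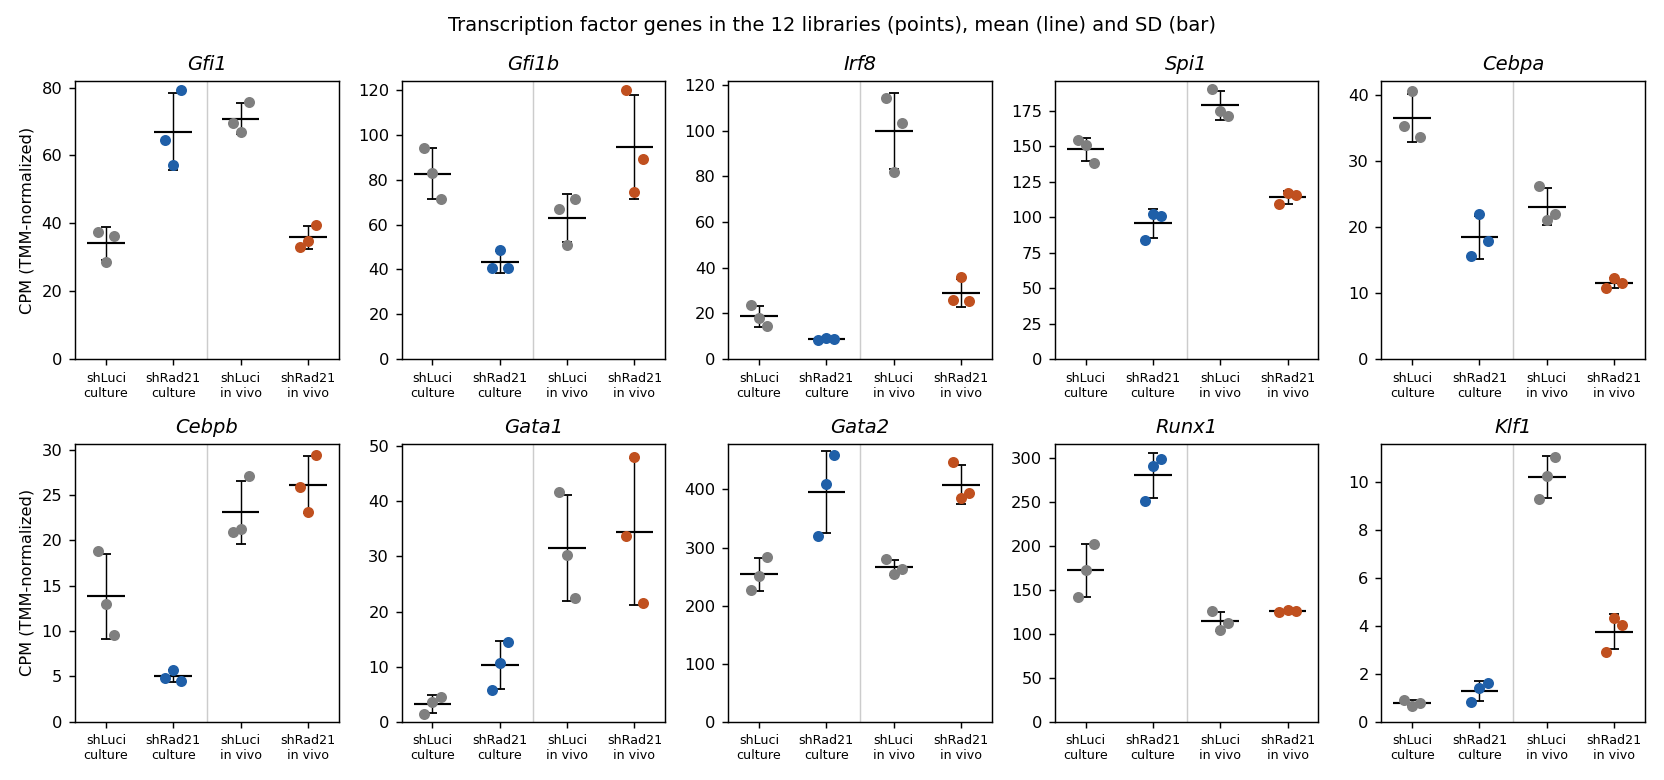
Level of each of the 10 genes in CPM (vertical axes, linear and starting at 0) in the 3 libraries of each group, with points for libraries, a line for the mean and a bar for the SD. Gfi1 is high in shRad21 culture cells (57.2 to 79.4 CPM) and in shLuci in vivo cells (66.9 to 75.9 CPM) and low in the other groups, while Gfi1b shows the reverse order of shRad21 and shLuci in each setting.

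Of the 9 other genes, 8 passed the test in culture, 3 higher and 5 lower in shRad21 cells, where 14.2% of all 15543 genes tested did (6.18% higher, 8.06% lower). In vivo 6 of the 9 passed, 2 higher and 4 lower, against 11.0% of the 15938 genes tested (5.65% higher, 5.32% lower). The CPM ranges of shRad21 and shLuci cells did not overlap for 8 of these 9 genes in culture (31.5% of all genes), Klf1 being the exception. They did not overlap for 6 of the 9 in vivo (29.1% of all genes), the exceptions being Cebpb, Gata1 and Runx1. The median log2 fold change over all genes was -0.0039 in culture and -0.0019 in vivo. The 9 genes were chosen with earlier results of these data known, so their counts here and below measure no enrichment over these shares.

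Gfi1b, the paralogue of Gfi1 that is needed for red cell and platelet formation, moved opposite to Gfi1 in each setting. In culture it stood at 94.1, 83.1 and 71.5 CPM in shLuci and at 40.6, 48.9 and 40.5 CPM in shRad21 cells. The groups lay apart, and Gfi1b fell 1.90-fold (log2 -0.93, SE 0.117, edgeR adjusted p = 0.000546). In vivo it stood at 67.0, 50.8 and 71.4 CPM in shLuci and at 120, 74.5 and 89.2 CPM in shRad21 cells. Here the shRad21 libraries lay above the controls, although the lowest of them exceeded the highest control by only a few CPM, and the increase was 1.52-fold (log2 0.60, SE 0.167, edgeR adjusted p = 0.0475). This call was lost without shLuci library 1, 2 or 3 or without shRad21 library 1 or 3, with an adjusted p of up to 0.150 and, without shRad21 library 1, a log2 fold change of 0.40. The difference between the responses, culture minus in vivo, was -1.52 (SE 0.234, edgeR adjusted p = 0.00189), and it passed the test without any 1 library (highest adjusted p 0.00744).

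Irf8, which drives monocyte and dendritic cell formation, fell in both settings. It stood at 23.4, 18.0 and 14.5 CPM in shLuci and at 8.53, 9.19 and 8.61 CPM in shRad21 cells in culture, a 2.10-fold decrease (log2 -1.07, SE 0.168, edgeR adjusted p = 0.00177). In vivo it stood at 114, 81.8 and 103 CPM in shLuci and at 25.8, 36.1 and 25.3 CPM in shRad21 cells, a 3.39-fold decrease (log2 -1.76, SE 0.157, edgeR adjusted p = 0.000172). Groups lay well apart in both, and the controls of the 2 settings differed more than either knockdown moved Irf8, with 5.40-fold less Irf8 in culture (log2 -2.43, edgeR adjusted p = 9.61e-09). The decrease was larger in vivo by 0.70 on the log2 scale (95% interval 0.17 to 1.23), which did not pass the test (edgeR adjusted p = 0.140) but did without shRad21 in vivo library 2 (adjusted p = 0.0484) or with no filter on low counts (0.00194).

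Spi1, whose product PU.1 is required for myeloid and B cell development, and Cebpa, which is required for granulocyte formation, fell by nearly equal amounts in the 2 settings. Spi1 stood at 154, 151 and 138 CPM in shLuci against 83.8, 102 and 101 CPM in shRad21 cells in culture, and at 190, 175 and 171 CPM against 109, 117 and 116 CPM in vivo. No library of one hairpin reached the range of the other within a setting. The decrease was 1.54-fold in culture (log2 -0.62, SE 0.0926, edgeR adjusted p = 0.00133) and 1.55-fold in vivo (log2 -0.64, SE 0.0668, edgeR adjusted p = 0.000417). Cebpa stood at 35.3, 40.7 and 33.6 CPM in shLuci against 15.6, 22.0 and 17.9 CPM in shRad21 cells in culture, and at 26.3, 21.0 and 22.0 CPM against 10.8, 12.3 and 11.5 CPM in vivo. Again the groups were apart, with a decrease of 1.97-fold (log2 -0.98, SE 0.135, edgeR adjusted p = 0.000872) and 1.99-fold (log2 -0.99, SE 0.128, edgeR adjusted p = 0.00118). The difference between the responses was 0.025 for Spi1 (95% interval -0.23 to 0.27) and 0.021 for Cebpa (95% interval -0.39 to 0.43) on the log2 scale. Differences within those intervals are compatible with these values.

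Cebpb, a C/EBP factor of emergency granulopoiesis and macrophages, separated from Cebpa. In culture it stood at 18.9, 12.99 and 9.62 CPM in shLuci and at 4.82, 5.76 and 4.48 CPM in shRad21 cells, a 2.73-fold decrease (log2 -1.45, SE 0.229, edgeR adjusted p = 0.00185). In vivo the libraries overlapped, at 20.9, 21.3 and 27.1 CPM in shLuci and at 25.9, 23.1 and 29.4 CPM in shRad21 cells (log2 0.19, 95% interval -0.11 to 0.50, edgeR adjusted p = 0.450). The responses differed by -1.63 (SE 0.288, edgeR adjusted p = 0.00446). Of the exonic bases of Cebpb, 20.7% are shared with Tmem189 on the other strand in GENCODE M21, and neither kit was described as marking strand, so reads from the 2 genes cannot be told apart there. The shared part was 3.17% for Gfi1, 1.93% for Cebpa and 0.881% for Runx1, and the other members had none.

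Gata2, a factor of stem cells, early progenitors and mast cells, rose alike in the 2 settings. It stood at 227, 252 and 283 CPM in shLuci against 319, 410 and 459 CPM in shRad21 cells in culture, and at 280, 255 and 263 CPM against 447, 385 and 393 CPM in vivo. Every shRad21 library lay above every control, and the increase was 1.57-fold (log2 0.65, SE 0.129, edgeR adjusted p = 0.00674) and 1.55-fold (log2 0.63, SE 0.0688, edgeR adjusted p = 0.000484). The responses differed by 0.022 on the log2 scale (95% interval -0.33 to 0.37).

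Runx1, the factor that founds the definitive blood lineage and acts with CBFB, rose in culture from 143, 172 and 203 CPM in shLuci to 251, 291 and 300 CPM in shRad21 cells (1.63-fold, log2 0.71, SE 0.122, edgeR adjusted p = 0.00315). In vivo it stood at 126, 104 and 112 CPM in shLuci and at 126, 128 and 126 CPM in shRad21 cells. These ranges overlapped and the increase of 0.16 on the log2 scale did not pass the test (95% interval -0.0041 to 0.33, edgeR adjusted p = 0.220). The difference between the responses, 0.55 (95% interval 0.22 to 0.89), had an edgeR adjusted p of 0.0593. It passed with DESeq2 (adjusted p = 0.0109), with 10 counts required in every library (0.0415) or no filter (0.00153), and without shLuci culture library 3 (adjusted p = 0.0137). With the replicate block, which pairs libraries by number in vivo as well as in culture, the adjusted p was 0.0129.

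Gata1, the master factor of red cells, platelets and mast cells, rose in culture from a low level. It had 1.33, 3.54 and 4.58 CPM (19 to 98 counts) in shLuci and 5.81, 10.6 and 14.5 CPM (141 to 407 counts) in shRad21 cells. The groups did not overlap although libraries within a group differed severalfold, and the increase was 3.19-fold (log2 1.67, SE 0.385, edgeR adjusted p = 0.0143). The call was lost without shLuci culture library 2 (adjusted p = 0.0601), and with the replicate block the adjusted p was 3.66e-07. In vivo Gata1 stood at 41.7, 30.3 and 22.5 CPM in shLuci and at 33.8, 48.1 and 21.5 CPM in shRad21 cells, with overlapping ranges (log2 0.15, 95% interval -0.49 to 0.79, edgeR adjusted p = 0.818). The responses differed by 1.53 (95% interval 0.37 to 2.69), which did not pass the test (edgeR adjusted p = 0.139). The difference passed with the replicate block (adjusted p = 0.00480), which pairs the in vivo libraries by number too.

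Klf1, the erythroid factor that switches on globin and red cell membrane genes and that GATA1 activates, had few counts in culture. It had 0.912, 0.667 and 0.794 CPM (13 to 17 counts) in shLuci and 0.824, 1.41 and 1.64 CPM (20 to 46 counts) in shRad21 cells, which overlapped (log2 0.73, 95% interval 0.015 to 1.44, edgeR adjusted p = 0.176). In vivo it fell from 9.30, 10.2 and 11.1 CPM in shLuci to 2.93, 4.31 and 4.05 CPM in shRad21 cells. The in vivo groups lay apart and the decrease was 2.68-fold (log2 -1.42, SE 0.192, edgeR adjusted p = 0.00150). The responses differed by 2.16 (SE 0.370, edgeR adjusted p = 0.00365), with Klf1 and Gata1 moving unlike each other in vivo, where Gata1 showed no change that passed the test.

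Over the 9 genes other than Gfi1, the difference between the 2 responses passed the test for 3, namely Klf1 (more positive in culture), Gfi1b and Cebpb (more negative in culture), against 4.67% of the 17050 genes tested (1.64% more positive, 3.03% more negative). The comparison of settings rests on the same control libraries as the knockdown comparisons. For Rad21 itself the 2 responses differed by -0.085 on the log2 scale (95% interval -0.32 to 0.14, edgeR adjusted p = 0.765).

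**Figure D2:**
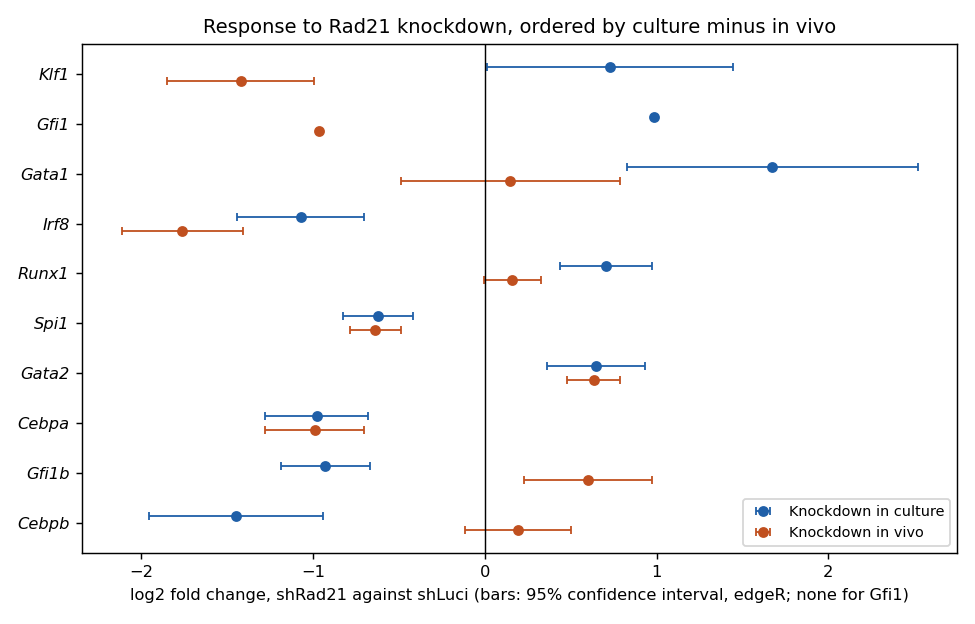
Log2 fold change of shRad21 against shLuci (horizontal axis) for each gene in culture (blue) and in vivo (red), with 95% confidence intervals from edgeR (none drawn for Gfi1) and genes ordered by the difference between the settings. Klf1, Gfi1, Gfi1b and Cebpb lie on opposite sides of 0 in the 2 settings, although Klf1 in culture and Cebpb in vivo did not pass the test. Spi1, Cebpa and Gata2 nearly coincide, at -0.62 and -0.64, -0.98 and -0.99, and 0.65 and 0.63.

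In control cells, 8 of the 9 genes other than Gfi1 differed between culture and in vivo cells, 3 higher and 5 lower in culture, where 74.2% of all 17050 genes tested did (37.1% higher, 37.1% lower) and 74.9% of all genes had ranges that did not overlap. A count of that size is close to the background. Klf1 (12.9-fold lower in culture, log2 -3.69, edgeR adjusted p = 1.15e-08) and Gata1 (9.62-fold lower, log2 -3.27, edgeR adjusted p = 4.36e-06) differed most, after which came Irf8. Cebpb (1.69-fold, log2 -0.75, edgeR adjusted p = 0.00330) and Spi1 (1.21-fold, log2 -0.28, edgeR adjusted p = 0.00712) were lower in culture as well. Cebpa (1.58-fold, log2 0.66, edgeR adjusted p = 0.000408) and Runx1 (1.51-fold, log2 0.60, edgeR adjusted p = 0.000199) were higher in culture. Gfi1b was 1.31-fold higher in culture (log2 0.39, edgeR adjusted p = 0.0432), a call that was lost with DESeq2 (adjusted p = 0.0516), with upper-quartile scaling (0.141), with scaling by library size alone (0.242) and without shLuci culture library 1 or 2, shLuci in vivo library 2, shRad21 culture library 1 or shRad21 in vivo library 3 (up to 0.190, with log2 0.26 without shLuci in vivo library 2). The ranges of Gata2 overlapped (log2 -0.066, 95% interval -0.31 to 0.18, edgeR adjusted p = 0.617). Upper-quartile scaling moved the median of all genes by -0.118 and scaling by library size by -0.175 on the log2 scale in this comparison, and by less than that in the others.

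Divided by the length of the union of its exons, which allows levels to be compared between genes, Spi1 was the highest of the 10 in control cells, at 54.8 ± 3.06 CPM per kilobase in culture and 66.3 ± 3.81 in vivo (SD, n = 3). In shRad21 cells Gata2 was the highest, at 73.4 ± 13.1 CPM per kilobase in culture and 75.6 ± 6.23 in vivo. The ranges of Spi1 and Gata2 lay apart in both shRad21 groups and in shLuci in vivo cells, whereas they overlapped in shLuci culture cells (47.0 ± 5.26 CPM per kilobase for Gata2). Gfi1 held the sixth place in shLuci culture cells (10.7 ± 1.53 CPM per kilobase), the fifth in shRad21 culture cells (21.0 ± 3.55), the fourth in shLuci in vivo cells (22.2 ± 1.44) and the sixth in shRad21 in vivo cells (11.2 ± 1.03). These places depend on the length used. With the longest transcript in place of the exon union Gfi1 held the same places in culture, but the fifth in shLuci in vivo cells (24.8 ± 1.61 CPM per kilobase), below Irf8 (28.8 ± 4.77), whose range overlapped its own, and the seventh in shRad21 in vivo cells (12.5 ± 1.14). Klf1 was the lowest in all 4 groups, from 0.517 ± 0.0801 CPM per kilobase in shLuci culture to 6.67 ± 0.576 in shLuci in vivo cells, and in shLuci culture cells its range overlapped that of Gata1 (1.29 ± 0.680).

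Ratios of gene pairs within a library were compared because the balance of such pairs is a classical readout of lineage choice and does not depend on the scaling between libraries. With 3 libraries against 3 the smallest 2-sided p of the exact permutation test is 0.1, so no ratio could pass the threshold of 0.05, and over the 10 comparisons the adjusted p was at least 0.2. The log2 ratio of Gata1 to Spi1, an erythroid against a myeloid factor, was -6.83, -5.40 and -4.91 in shLuci and -3.84, -3.26 and -2.80 in shRad21 cells in culture. Its difference was 2.41 in culture, where the groups did not overlap (exact permutation p = 0.1), and 0.75 in vivo, where they did (exact permutation p = 0.2). Gata1 to Gata2, the pair that exchanges during red cell formation, shifted by 1.15 in culture without overlap (exact permutation p = 0.1) and by -0.52 in vivo with overlap (exact permutation p = 0.3). Cebpa to Cebpb shifted by 0.42 in culture (exact permutation p = 0.2), with overlap, and by -1.18 in vivo (exact permutation p = 0.1), without overlap, where shLuci libraries stood at 0.33, -0.017 and -0.30 and shRad21 libraries at -1.27, -0.91 and -1.36. Irf8 to Cebpa, monocytic against granulocytic, did not move clearly in culture (-0.066, exact permutation p = 0.8) and shifted by -0.78 in vivo without overlap (exact permutation p = 0.1). Gfi1b to Gata1 shifted by -2.71 in culture without overlap (exact permutation p = 0.1) and by 0.47 in vivo with overlap (exact permutation p = 0.4). Every ratio without overlap in culture contains Gata1, which had only 19 to 98 counts in shLuci culture libraries, so these ratios are not separate readouts. When culture libraries of the same number were compared as pairs, a comparison chosen after the data were seen, Cebpa to Cebpb rose in 3 of 3 pairs, by 0.19 to 0.78 on the log2 scale. The direction was also shared by the 3 pairs for the ratios of Gata1 to Spi1, Gata1 to Gata2 and Gfi1b to Gata1 but not for Irf8 to Cebpa, and 0.25 is the smallest 2-sided p that the exact paired permutation test can give with 3 pairs.

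**Figure D3:**
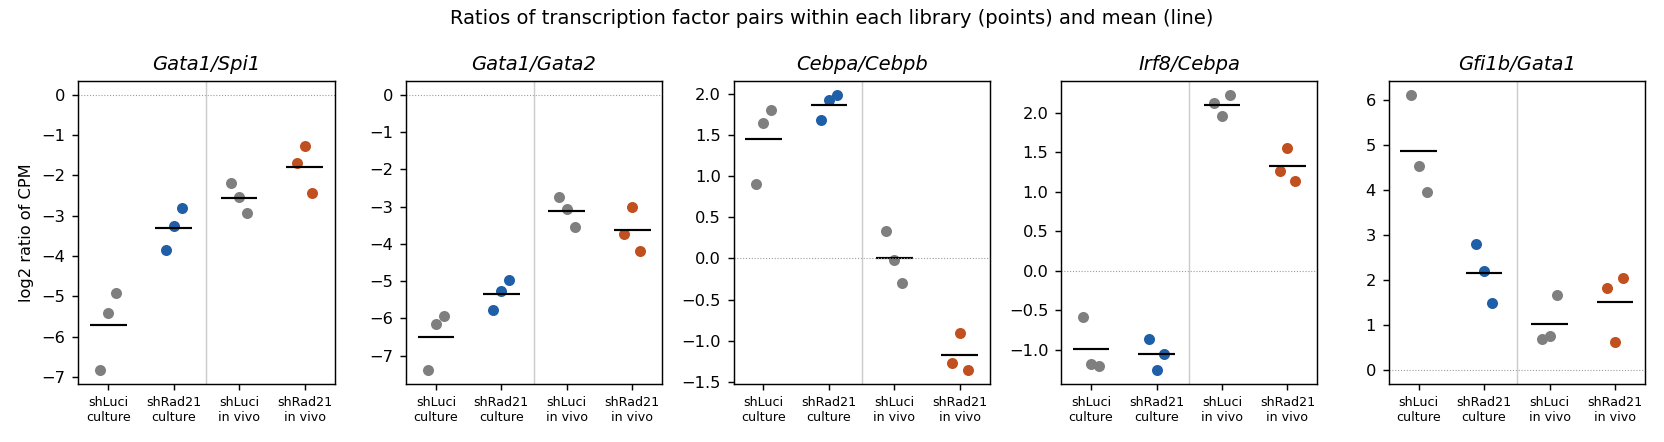
Log2 ratio of CPM (vertical axes) for 5 pairs of genes in each library (points) with the group mean (line) and a dotted line at 0, where both genes have the same CPM. In culture the Gata1/Spi1 ratio of shRad21 cells (-3.84 to -2.80) lies above that of shLuci cells (-6.83 to -4.91), and in vivo the Cebpa/Cebpb ratio of shRad21 cells (-1.36 to -0.91) lies below that of shLuci cells (-0.30 to 0.33).

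The genes around these factors were counted over 8 lists, which were chosen with earlier results of these data known. Over all genes tested, 6.18% rose and 8.06% fell in culture, and 5.65% rose and 5.32% fell in vivo. These shares stand beside the counts of every list below. Of 18 partners and cofactors, 3 rose and 2 fell among 17 tested in culture, and 3 rose and 2 fell among 18 in vivo (median log2 fold change 0.035 and 0.0038). Tal1, which binds DNA together with GATA1 and LMO2, rose in both settings, from 189 ± 4.46 to 276 ± 3.09 CPM in culture (edgeR adjusted p = 0.000590) and from 41.8 ± 4.54 to 54.1 ± 3.41 CPM in vivo (edgeR adjusted p = 0.0255). Lmo2 fell in both, by 0.48 (edgeR adjusted p = 0.00428) and by 0.35 on the log2 scale (edgeR adjusted p = 0.0158). Cbfb, the partner of RUNX1, rose in culture (log2 0.28, edgeR adjusted p = 0.0424), and Zfpm1, encoding the GATA1 cofactor FOG1, rose in vivo (log2 0.46, edgeR adjusted p = 0.00427). Of 40 other lineage factors, 8 rose and 7 fell among 32 tested in culture (median 0.036), and 5 rose and 7 fell among 39 in vivo (median -0.21). Mecom, encoding the stem cell factor EVI1, rose in both settings (log2 0.58 and 0.43, edgeR adjusted p = 0.000848 and 0.0402). In culture Fli1 rose most among these (log2 0.72, edgeR adjusted p = 0.000379) and the dendritic cell factor Zbtb46 fell most (log2 -1.76, edgeR adjusted p = 0.000867). In vivo the early response gene Egr1 rose (log2 1.50, edgeR adjusted p = 0.000272) and the B cell factor Ebf1 fell (log2 -2.13, edgeR adjusted p = 0.00572).

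Most tested markers of myeloid cells had negative fold changes, as did Irf8, Spi1 and Cebpa in both settings and Cebpb in culture only. Of 22 monocytic and dendritic genes, 1 rose and 11 fell among 17 tested in culture and 11 fell among 22 in vivo (median log2 fold change -1.46 and -1.13). The fractalkine receptor gene Cx3cr1 fell from 20.2 ± 1.94 to 3.06 ± 1.38 CPM in culture (edgeR adjusted p = 6.42e-05), and the macrophage gene Cd68 from 30.9 ± 9.16 to 9.58 ± 0.328 CPM in vivo (edgeR adjusted p = 0.000773). The summed level of the list ran from 593 to 768 CPM in shLuci and from 476 to 545 CPM in shRad21 cells in culture, and from 1737 to 2057 CPM against 1169 to 1316 CPM in vivo, with no gene of the list at 0 in a whole group. Of 20 granulocytic genes, 6 fell among 9 tested in culture and 3 among 19 in vivo, and none rose (median -1.15 and -0.46). Prtn3, a neutrophil granule protease gene, fell from 54.5 ± 2.19 to 23.3 ± 3.29 CPM in culture (edgeR adjusted p = 7.28e-05) and from 208 ± 21.6 to 143 ± 6.66 CPM in vivo (edgeR adjusted p = 0.00334). The granulocytic sum ran from 274 to 342 CPM against 113 to 132 CPM in culture and from 2074 to 2622 CPM against 1519 to 1744 CPM in vivo. Ly6g, Fcnb and Cd177 were at 0 in all culture libraries. The part of these markers, and so of the number of cells of each type, in the values of the 10 genes was not tested.

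Erythroid and megakaryocytic genes went both ways, as Gata1, Gfi1b and Klf1 did. In culture 5 rose and 5 fell among 13 tested of 25 (median 0.18), and in vivo 6 rose and 5 fell among 25 (median -0.31). The platelet and stem cell gene Vwf rose in both settings, from 76.4 ± 18.9 to 132 ± 22.8 CPM in culture (edgeR adjusted p = 0.00863) and from 15.8 ± 0.710 to 140 ± 8.15 CPM in vivo (edgeR adjusted p = 8.14e-08). In vivo the risers also included the platelet receptor gene Gp1bb (log2 1.27, edgeR adjusted p = 0.00617), while the red cell genes Car1 (log2 -2.13, edgeR adjusted p = 7.10e-05), Ermap (log2 -1.79, edgeR adjusted p = 0.00255) and Alas2 (log2 -0.82, edgeR adjusted p = 0.0213) fell. In culture the platelet integrin gene Itga2b rose (log2 1.05, edgeR adjusted p = 0.00274), as did the red cell membrane gene Epb42 (log2 1.66, edgeR adjusted p = 0.000957), and the transferrin receptor gene Tfrc fell (log2 -0.83, edgeR adjusted p = 9.73e-05). The beta globin gene Hbb-bt fell in culture from 151 ± 20.7 to 79.0 ± 13.4 CPM (edgeR adjusted p = 0.00103), as did Blvrb (log2 -0.86, edgeR adjusted p = 0.00176). In shLuci in vivo cells Hbb-bt stood at 20.4 ± 6.10 CPM. The alpha globin genes Hba-a1 and Hba-a2 had no count in any culture library, and the beta globin gene Hbb-bs reached at most 0.253 CPM there. The summed level ran from 1817 to 1947 CPM against 1619 to 1989 CPM in culture and from 2011 to 2423 CPM against 2765 to 3260 CPM in vivo, and its part in the values of Gata1, Gfi1b and Klf1 was not tested.

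Of 13 mast cell and basophil genes, 2 rose among 9 tested in culture and 4 among 11 in vivo, and none fell (median 0.67 and 0.26). The mast cell protease gene Cpa3 rose with Gata2 in both settings, from 10.2 ± 3.95 to 42.1 ± 23.5 CPM in culture (edgeR adjusted p = 0.00493) and from 62.2 ± 10.6 to 131 ± 37.2 CPM in vivo (edgeR adjusted p = 0.00576). The summed level of this list overlapped between shLuci and shRad21 cells in both settings, at 623 to 695 CPM against 545 to 781 CPM in culture and 1075 to 1168 CPM against 1087 to 1191 CPM in vivo. Of 18 B cell and T cell genes, 3 fell among 6 tested in culture and 8 among 12 in vivo, and none rose (median -0.40 and -1.81). Their sum ran from 92.9 to 126 CPM against 49.5 to 65.2 CPM in culture and from 207 to 238 CPM against 92.3 to 110 CPM in vivo. Tcf7, a factor of early T cells, fell in both settings (log2 -2.51 and -2.25, edgeR adjusted p = 3.61e-05 and 0.00154), and the pre-B cell gene Igll1 fell in vivo (log2 -2.56, edgeR adjusted p = 0.000272). Of 11 LSK identity genes, 5 rose and 2 fell in culture and 5 rose and 3 fell in vivo (median 0.38 and 0.0084). Slamf1, encoding the stem cell antigen CD150, rose from 13.6 ± 2.71 to 31.6 ± 5.43 CPM in culture (edgeR adjusted p = 0.000803) and from 11.3 ± 0.684 to 46.1 ± 5.24 CPM in vivo (edgeR adjusted p = 2.18e-05). Flt3, a gene of multipotent progenitors primed for lymphoid and myeloid fates, fell in both settings (log2 -1.12 and -1.61, edgeR adjusted p = 0.00168 and 2.48e-05), as did Kit (log2 -1.42 and -0.42, edgeR adjusted p = 1.53e-05 and 0.00659). Markers of these lists thus also changed within the sorted population, some up and some down, and their part in the values of the 10 genes was not tested.

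**Figure D4:**
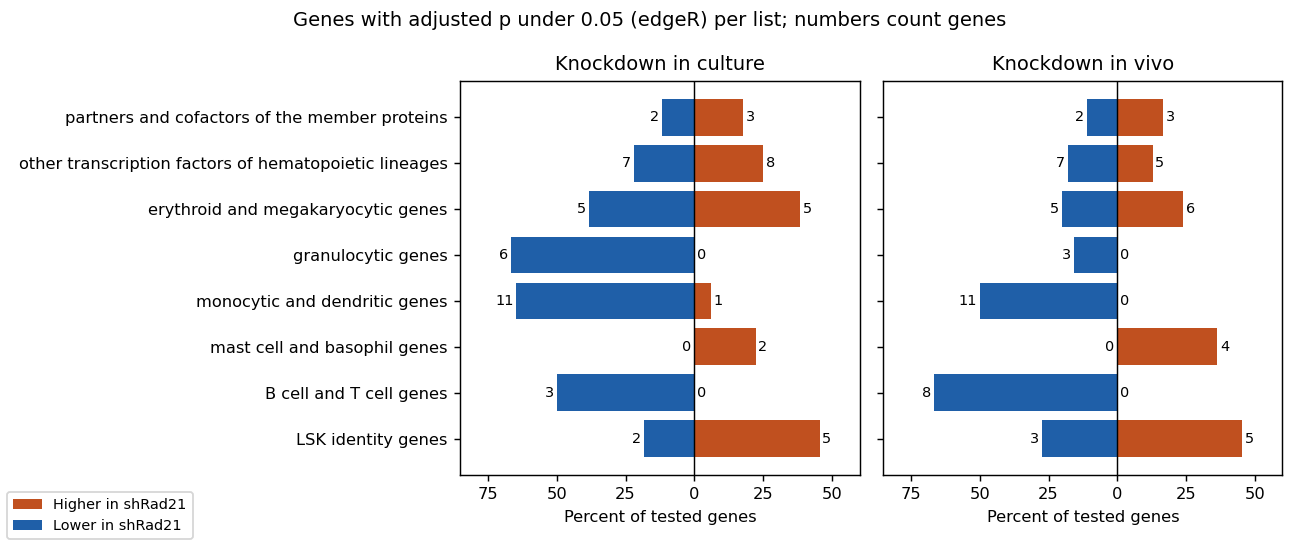
Percent of tested genes of each of the 8 lists that were lower (blue, to the left) or higher (red, to the right) in shRad21 than in shLuci cells with an edgeR adjusted p under 0.05, in culture and in vivo, with the number of genes beside each bar. Monocytic and dendritic genes lie mostly to the left, with 11 lower in each setting. The erythroid and megakaryocytic list divides evenly, with 5 higher and 5 lower in culture. Over all genes tested, 6.18% were higher and 8.06% lower in culture, and 5.65% higher and 5.32% lower in vivo.

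The genes most like Gfi1 over the 12 libraries, by Pearson correlation of log2 CPM among 17049 other genes, were Gm12184 (r = 0.89), Dusp22 (r = 0.88) and Fgf13 (r = 0.86). The 12 libraries share 4 groups and 2 settings, so these values describe the order of group means. Dusp22, a phosphatase gene, had mean levels of 2.89 and 4.65 CPM in shLuci and shRad21 cells in culture and of 5.39 and 2.13 CPM in vivo. Fgf13 stood at 0.523 and 1.93 CPM in culture and at 2.65 and 0.652 CPM in vivo, low levels throughout, and Gm12184 varied within a narrow range, from 11.9 to 14.9 CPM.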

How the data were processed

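Total RNA was sequenced as single-end reads in 12 libraries, 3 in each of 4 groups taken from the labels. The authors deposited raw counts of reads per Ensembl gene. Their notes name bcl2fastq 1.8.4, FastQC 0.11.3, TopHat2 2.0.11 on GRCm38/mm10, HTSeq 0.6.1 and DESeq2 1.16.1, and the annotation release and strand setting are not given in the sources used here. Of 46078 gene identifiers, 45143 were matched to GENCODE M21.

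Deposited counts were tested with edgeR 4.0.16 (R 4.3.3), TMM scaling, filterByExpr (minimum count 10, minimum total 15) and the quasi-likelihood test, each knockdown in the 6 libraries of its setting and the comparisons of settings in 1 model of all 12. Benjamini-Hochberg adjustment ran over all genes tested, with a threshold of 0.05. Ratios used edgeR's log2 CPM with a prior count of 0.5 and the 2-sided exact permutation test. Levels per kilobase used the union of exons. The fits were tested on simulated data. The 10 genes and the 8 lists (partners and cofactors, other lineage factors, erythroid and megakaryocytic, granulocytic, monocytic and dendritic, mast cell and basophil, B cell and T cell, LSK identity) were chosen with earlier results of these data known. Named list genes are among the 3 with the largest change per direction that passed the test, did not overlap between groups and averaged at least 1 on the log2 CPM scale. The 3 genes most like Gfi1 were those with the highest Pearson correlation. Total counts ran from 15235129 to 29846689, and a count of 3 was taken as the detection limit. Libraries of a group differed by 5.73 to 20.7 in chi-square per degree of freedom, more than counting noise gives.

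Replicate numbers are shared by the titles of shLuci and shRad21 libraries. Same-numbered culture libraries deviated together from their group means (correlation 0.216 to 0.262 over 15543 genes, against -0.322 to 0.0686 for other pairs). The numbers were therefore taken to pair the culture libraries. The main tests did not use this pairing, which entered only with the replicate block and the paired ratios. In vivo the correlation of same-numbered libraries was 0.024 to 0.0694, against -0.0924 to 0.0446 for other pairs. Whether the in vivo libraries are paired could not be settled from these values. Alternatives were DESeq2 1.42.0, other scalings and filters, the replicate block, leaving out each library and, added after the data were seen, ratios compared as pairs of culture libraries.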

Additional observations from a re-analysis of the deposited data

Results flagged for a closer look

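The response to the knockdown differed between culture and in vivo cells for 3 of the 9 genes tested, against 4.67% of all 17050 genes. The difference in log2 fold change, culture minus in vivo, was 1.96 for Gfi1, for which every shRad21 library moved up in culture and down in vivo and the difference was not tested because the gene was chosen for it. It was -1.52 for Gfi1b, -1.63 for Cebpb and 2.16 for Klf1, each past the threshold of edgeR's quasi-likelihood test of the difference with Benjamini-Hochberg adjustment. With the replicate block Gata1 (adjusted p = 0.00480) and Runx1 (adjusted p = 0.0129) passed too. That block also pairs the in vivo libraries, for which pairing was not established. Setting, library kit, sort gate and lane cannot be told apart in these differences. Groups of 3 libraries are too small to look for single outlying libraries.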

How the results depend on the processing

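The alternatives were DESeq2, upper-quartile or library-size scaling, no filter, a filter of 10 counts in every library, the replicate block and the other choice of libraries. Under these the calls of the 9 genes tested in the knockdown in culture and in vivo did not change. Those in the control comparison changed only for Gfi1b. The number of genes other than Gfi1 whose responses differed between settings was 3, also with the other scalings. It became 4 with DESeq2 or 10 counts in every library, 6 with no filter and 5 with the replicate block, which changed no other call. Leaving out 1 library gave 7 to 8, 5 to 6, 8 to 9 and 3 to 4 calls in the knockdown in culture, in vivo, the control comparison (Gfi1 included) and the difference of responses. It turned the sign of differences near 0 that had not passed the test, in log2: Gata1 in vivo (-0.17 to 0.40), Gata2 in control cells (-0.14 to 0.018), the difference of responses of Spi1 (-0.029 to 0.12), Cebpa (-0.12 to 0.14) and Gata2 (-0.0998 to 0.16), and the ratio of Irf8 to Cebpa in culture (-0.17 to 0.13). Over all genes the calls were 2213 in culture (1352 without shRad21 library 2, 3186 with the replicate block). In vivo they were 1749 (951 without shRad21 library 3, 2829 with no filter). For the difference of responses they were 796 (1256 with DESeq2, 1409 with no filter, 492 without shRad21 culture library 2). The 8 lists held 56, 59, 125 and 20 called genes, and 55 to 66, 59 to 65, 128 to 130 and 22 to 24 with DESeq2 or the block. With the longest transcript in place of the exon union, 26 of the 40 places in the order of levels were kept. The cause of these changes was not tested. Klf1 in culture is limited by its 13 to 46 counts.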
